A study of Mus musculus with 6 samples.

Results

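The 8 genes described here encode the GalNAc-transferases that prefer glycopeptide substrates (Galnt4, Galnt7, Galnt10 and Galnt12), 2 members of the Y-subfamily (Galnt9 and Galnt18) and the related genes Galntl5 and Galntl6. They were found by the RefSeq accession in the name of each probe set. All 8 were measured, each through 1 probe set, among 908 named genes in all. RNA from MLE-15, an epithelial cell line of mouse lung that carries the SV40 large T antigen, was hybridised to 6 Affymetrix arrays. The control group had 3 arrays from unstimulated cells. The PMA group had 3 arrays from cells exposed to PMA (phorbol 12-myristate 13-acetate, which activates protein kinase C) at 10 nM for 24 h, a dose and time taken from the series design text. The series set out to learn which enzymes of glycan modification and which mucins these cells express, and whether PMA induces them. The labels name no genotype other than the line, and they do not say whether each replicate was a culture of its own. A p-value here therefore reflects the spread among these arrays, which may be technical.

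Polypeptide GalNAc-transferases start mucin-type O-glycans in the Golgi by linking N-acetylgalactosamine (GalNAc) to serine or threonine of a protein. Mucins carry dense clusters of these sugars, built by several enzymes of the family acting in turn. Some act on bare peptide, and others act mainly on peptide that already carries GalNAc and so fill in sites next to those used first. Most have a catalytic domain and a lectin domain that binds GalNAc. The Y-subfamily showed little activity on common test peptides in earlier work, and Galntl5 lacks the lectin domain.

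Levels below are RMA values on the log2 scale. RMA removes background, is meant to give all arrays the same distribution and combines the probes of a set into 1 value. A step of 1 unit is a doubling of the summarised signal. The deposited values did not fully share 1 distribution. Array medians ran from 5.64 to 5.71 and upper quartiles from 7.86 to 8.05 over 1246 probe sets. Both arrays of replicate number 1 lay far from the rest: by limma with Benjamini-Hochberg adjustment, 519 probe sets (41.7%) differed between them and numbers 2 and 3. The short names in the sample titles end in A for number 2 and in B for number 3. Those of number 1 carry no such letter, and the labels do not say what this stands for. Of 13 listed lung epithelial markers only Sftpa1, at a mean of 3.51, and Sftpd, at 5.40, were named in this table. The first lies under the lower quartile of every array (4.32 to 4.43), so the labelled cell type could not be checked well. The number of arrays limits the precision. No probe set marks background, so whether a gene is expressed was not judged, and levels of different genes were not ranked.

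Promoter sequence was found in the RefSeq table of build GRCm38.p6 for 5 of the 8 members, and not for Galnt4, Galnt12 or Galnt18. The 250 bases before the start are shown for Galnt10 and Galntl5, which were higher in the number 1 arrays, and for Galnt7 and Galnt9, which were not called. Capitals mark the GC box GGGCGG on either strand, which binds Sp1-family factors. All are written 5′ to 3′ on the gene's strand.
Galnt10, chr11:57645192-57645441, plus strand: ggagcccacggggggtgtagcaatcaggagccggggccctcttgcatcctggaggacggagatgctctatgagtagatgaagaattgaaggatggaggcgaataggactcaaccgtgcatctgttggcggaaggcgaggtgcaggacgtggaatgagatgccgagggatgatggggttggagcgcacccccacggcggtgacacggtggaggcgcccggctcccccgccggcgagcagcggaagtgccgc
Galntl5, chr5:25181230-25181479, plus strand: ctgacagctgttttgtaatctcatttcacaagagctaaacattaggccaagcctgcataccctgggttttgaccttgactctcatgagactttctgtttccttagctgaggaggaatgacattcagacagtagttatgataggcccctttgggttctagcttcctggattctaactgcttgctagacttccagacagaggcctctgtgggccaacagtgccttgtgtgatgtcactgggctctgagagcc
Galnt7, chr8:57653056-57653305, minus strand: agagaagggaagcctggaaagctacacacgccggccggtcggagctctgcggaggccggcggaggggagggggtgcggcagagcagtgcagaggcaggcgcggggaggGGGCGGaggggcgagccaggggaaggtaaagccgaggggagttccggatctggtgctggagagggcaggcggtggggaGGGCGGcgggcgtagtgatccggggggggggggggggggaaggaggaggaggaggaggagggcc
Galnt9, chr5:110544105-110544354, plus strand: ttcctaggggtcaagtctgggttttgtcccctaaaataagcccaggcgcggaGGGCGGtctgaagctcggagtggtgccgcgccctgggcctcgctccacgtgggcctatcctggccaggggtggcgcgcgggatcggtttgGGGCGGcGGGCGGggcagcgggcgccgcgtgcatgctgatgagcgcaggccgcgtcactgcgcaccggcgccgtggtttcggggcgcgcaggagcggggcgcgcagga

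The GC box was matched 2 times before Galnt7 and 3 times before this start of Galnt9. It was not matched in the windows of Galnt10 or Galntl5, nor in that of Galntl6, which was not called either. It occurs in 32.7% of 32851 such windows of the table. Galnt9 has a second listed start, whose window held no GC box. The AP-1 site TGANTCA, the element through which phorbol esters are known to act on many genes, was matched in none of the 6 windows of the 5 members, against 6.75% of all windows. The cAMP response element TGACGTCA (1.55% of all windows) was not matched either. The TATA box TATAAA (12.4% of all windows) was matched 1 time, before Galntl6. Each motif was searched on both strands. GC content was 64.4% for Galnt10, 48% for Galntl5, 73.6% for Galnt7, 72.4% for the Galnt9 window shown and 40.4% for Galntl6, against a median of 52.4%. These matches describe letters in the windows only.

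The mean levels of the 8 transcripts in PMA arrays lay within 0.16 log2 units of those in control arrays, and none passed the test. The limma 95% interval ran from -1.21 to 1.53 for Galnt10 and from -1.29 to 1.04 for Galnt12. Larger differences in these members were therefore not excluded. For the other 6 members the interval lay within 1 log2 unit of 0. The largest mean differences were those of Galnt10 and Galntl6, above 0, and of Galnt9 and Galnt12, below it, the largest being 0.16 log2 units for Galnt10. In the test by limma with Benjamini-Hochberg adjustment over all probe sets, 0 of the 8 members and 0 of the 1246 probe sets (0%) were called, with 0 members and 4 probe sets at an unadjusted p under 0.05. The mean was higher in PMA arrays for 5 members and lower for 3. Their median difference was 0.010, beside 0.0033 over all probe sets. Their median absolute difference was 0.11, beside 0.050.

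Among the glycopeptide-preferring enzymes, Galnt10, which adds GalNAc next to GalNAc already in place, stood at 8.47, 7.13 and 7.01 in control arrays 1, 2 and 3. It stood at 8.54, 7.46 and 7.09 in PMA arrays 1, 2 and 3. The group means were 7.54 ± 0.81 and 7.70 ± 0.75 (SD, n = 3 each), and the groups overlapped, with number 1 high in both. The difference was 0.16 log2 units (SE 0.55), with a 95% interval from -1.21 to 1.53. Within numbers, Galnt10 was higher with PMA in 3 of 3 pairs, by 0.073, 0.33 and 0.076, so PMA 2 gave most of the mean difference.

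Galnt12, expressed in colon among other tissues and able to act on both peptides and glycopeptides, stood at 8.90, 7.73 and 7.81 in control arrays 1, 2 and 3. It stood at 8.80, 7.55 and 7.72 in PMA arrays 1, 2 and 3. The difference was -0.12 (SE 0.47), with a 95% interval from -1.29 to 1.04. Galnt12 was lower with PMA in 3 of 3 pairs, by -0.10, -0.18 and -0.091, opposite in sign to Galnt10. Its probe set carries the suffix s, so it can bind several transcripts.

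Galnt4, which acts on peptides and glycopeptides and is known for glycosylating the selectin ligand PSGL-1, stood at 7.10, 6.56 and 6.69 in control arrays 1, 2 and 3. It stood at 7.11, 6.66 and 6.61 in PMA arrays 1, 2 and 3. The pairs gave 0.0077, 0.10 and -0.078, so their signs differed, and the mean difference was 0.011 (SE 0.20). In the RefSeq annotation Galnt4 overlaps Poc1b, and whether the probe set also reads Poc1b transcripts was not tested. Galnt7, a strict glycopeptide enzyme, had the narrowest range of the 4, from 4.03 to 4.20 over all 6 arrays. Its pairs gave -0.13, 0.0072 and -0.00014, so the number 1 pair alone set its mean difference of -0.041 (SE 0.067). Galnt7 lay below the lower quartile on every array.

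In the Y-subfamily, Galnt9, a gene known for expression in brain, stood at 5.46, 5.57 and 5.47 in control arrays 1, 2 and 3. It stood at 5.38, 5.38 and 5.36 in PMA arrays 1, 2 and 3. All PMA values lay below all control values, and Galnt9 was the only member whose groups did not overlap. Over all probe sets 3.37% had groups that did not overlap. The difference was -0.12 (SE 0.059), a 1.09-fold lower signal, with a 95% interval from -0.27 to 0.025. It had an unadjusted p = 0.0865 and an adjusted p = 0.999 by limma. The 3 pairs gave -0.076, -0.19 and -0.10.

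Galnt18, whose product is known to reside in the endoplasmic reticulum, stood at 5.92, 6.05 and 6.02 in control arrays 1, 2 and 3. It stood at 5.86, 6.39 and 6.02 in PMA arrays 1, 2 and 3. PMA 2 was the highest array and the other 5 lay between 5.86 and 6.05. The pairs gave -0.058, 0.34 and 0.0016, and the mean difference was 0.093 (SE 0.15), with a 95% interval from -0.28 to 0.46.

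Galntl5, a testis gene needed for normal sperm, stood at 4.61, 4.23 and 4.06 in control arrays 1, 2 and 3. It stood at 4.44, 4.23 and 4.26 in PMA arrays 1, 2 and 3. Its pairs gave -0.17, -0.00064 and 0.20, with a mean difference of 0.0096 (SE 0.16). Galntl6, a little-studied relative, stood at 3.43, 3.38 and 3.33 in control and 3.62, 3.53 and 3.37 in PMA arrays 1, 2 and 3. Galntl6 was higher with PMA in 3 of 3 pairs, by 0.19, 0.15 and 0.037, and the mean difference was 0.13 (SE 0.083). It lay below the lower quartile on all 6 arrays.

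**Figure D1:**
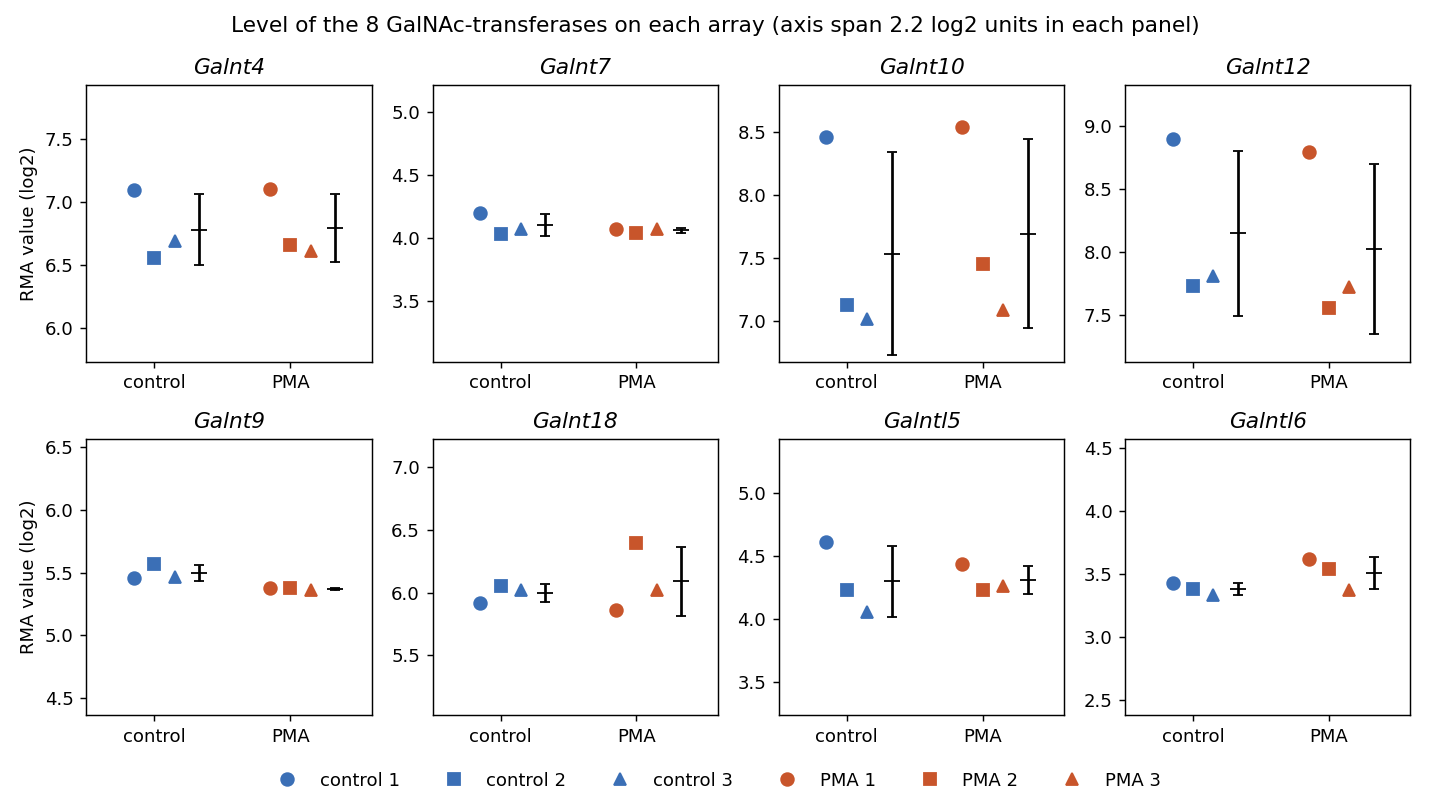
RMA values (log2) of the 8 genes on each array, with control arrays in blue and PMA arrays in red, the replicate number given by the symbol, and bars for the group mean ± SD (n = 3). Number 1 (circles) is the highest array of both groups for Galnt4, Galnt10, Galnt12, Galntl5 and Galntl6, and each panel spans 2.2 log2 units.

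In all, 4 of the 8 members had 3 pairs of the same sign, Galnt10 and Galntl6 upward and Galnt12 and Galnt9 downward. Over all probe sets 23.1% did. These counts rest on matching arrays by number. The difference between numbers 2 and 3 in control arrays correlated with that in PMA arrays at only 0.041. PMA 3 lay below control 2 for Galnt10 (7.09 and 7.13) and Galntl6 (3.37 and 3.38), so their same sign depends on that matching. Without number 1 in either group limma again called 0 members. The differences were then 0.20 for Galnt10, 0.17 for Galnt18, 0.10 for Galntl5, 0.095 for Galntl6, 0.013 for Galnt4, 0.0035 for Galnt7, -0.13 for Galnt12 and -0.15 for Galnt9. The value for Galnt7 turned in sign, and that for Galntl5 rose from 0.0096.

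The intervals say how large a PMA difference could still be. Without a block, the 95% interval lay within 1 log2 unit of 0 for 6 of the 8 members, all but Galnt10 and Galnt12. The same held for 1104 of the 1246 probe sets. In a fit with a block for each replicate number, the interval lay within 0.58 log2 units (1.5-fold) for 8 of 8 members. All 1246 probe sets then lay within 1 log2 unit. The widest reach of a member in that fit was that of Galnt10, from -0.012 to 0.33. Galnt12 then ran from -0.27 to 0.025 and Galnt9 from -0.27 to 0.026. The blocked fit called 0 members and 0 probe sets (0%).

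**Figure D2:**
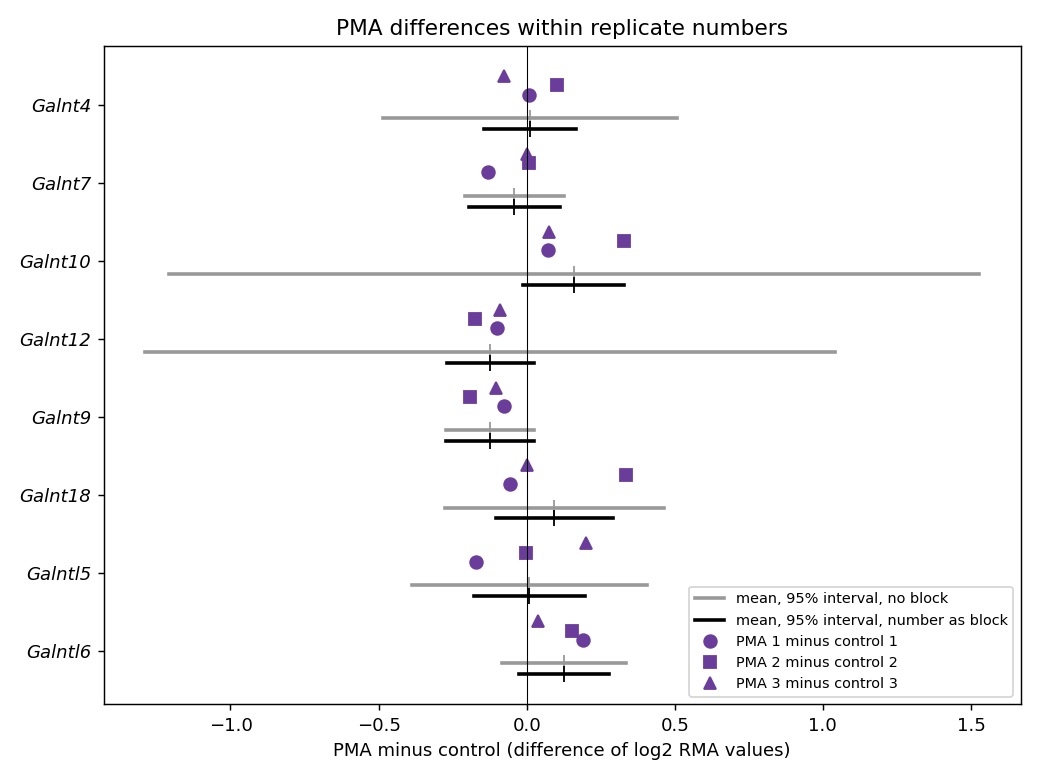
PMA minus control (difference of log2 RMA values) for each gene, with symbols for the 3 pairs of equal replicate number and lines for limma's 95% interval without a block (grey) and with the number as a block (black). All pairs of Galnt10 and Galntl6 lie above 0 and all pairs of Galnt12 and Galnt9 below it, and every interval includes 0.

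The PMA difference was also compared between number 1 and numbers 2 and 3. By limma with Benjamini-Hochberg adjustment, 0 members and 1 probe set (0.0803%) were called in that comparison, with 0 members at an unadjusted p under 0.05. The largest for a member was that of Galntl5, at -0.27 (SE 0.15), with a 95% interval from -0.62 to 0.071 and an adjusted p = 0.743. Galnt18 followed at -0.23 (SE 0.21), where the number 1 pair was below 0 and the others were above it.

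For 6 of the 8 members, all but Galnt9 and Galntl6, the number 1 difference was larger in size than the PMA difference. The glycopeptide-preferring enzymes Galnt10, Galnt12 and Galnt4 and the testis gene Galntl5 were higher in the number 1 arrays than in numbers 2 and 3, and none was called lower with the values as deposited. By limma with PMA as a term and Benjamini-Hochberg adjustment over all probe sets, 4 of the 8 members were called, 4 higher and 0 lower. Over all probe sets 27.5% were called higher and 14.1% lower, and 41.7% in either direction. The called probe sets were 66.1% higher and 33.9% lower, and 54.5% and 45.5% after quantile normalization of these arrays once more, where the 4 members were again called higher. In 5 of the 8 members both number 1 values lay beyond all 4 others, above them in the 4 called and below them in Galnt18, against 55.9% of all probe sets. The median difference of the members was 0.22, beside 0.079 over all probe sets, and their median absolute difference was 0.28, beside 0.17. With 1 pair of arrays set against 2 pairs, the test speaks of these arrays only. It counts control 1 and PMA 1 as independent although they share a number, so its p-values may be too small.

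Galnt10 averaged 8.50 in the number 1 arrays and 7.17 ± 0.20 (SD, n = 4) in the others. The difference was 1.33 log2 units (SE 0.10), a 2.51-fold higher signal, with an adjusted p = 1.67e-06 by limma. It was 1.39 among control arrays and 1.27 among PMA arrays, and the lowest number 1 value, 8.47, lay well above the highest other value, 7.46. In absolute size it stood at the 94.1 percentile of all probe sets.

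Galnt12 averaged 8.85 in number 1 and 7.70 ± 0.11 (SD, n = 4) in the others. The difference was 1.14 (SE 0.074), a 2.21-fold higher signal, with an adjusted p = 4.88e-07 by limma. It was 1.13 among control arrays and 1.16 among PMA arrays. A difference of over 1 log2 unit in size, as in Galnt10 and Galnt12, was met by 9.23% of all probe sets.

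Galnt4 averaged 7.10 in number 1 and 6.63 ± 0.058 (SD, n = 4) in the others, a difference of 0.47 (SE 0.070), 1.38-fold, with an adjusted p = 0.000264 by limma. It was 0.47 among control arrays and 0.47 among PMA arrays. Galntl5 averaged 4.53 and 4.20 ± 0.092 (SD, n = 4), a difference of 0.33 (SE 0.085), 1.26-fold, with an adjusted p = 0.00913. It was 0.47 among control arrays and 0.19 among PMA arrays. Without control 1 the Galntl5 difference was 0.19 and was no longer called (adjusted p = 0.205 by limma), nor was it without number 3 in both groups, at 0.29 (adjusted p = 0.0545).

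The other members were not called. Galnt18 stood lower in number 1, at 5.89 against 6.12 ± 0.18 (SD, n = 4), a difference of -0.23 (SE 0.10) with an adjusted p = 0.0966 by limma. After the second quantile normalization it was called lower, at -0.28 (adjusted p = 0.0374 by limma). Galntl6 differed by 0.12 (SE 0.074), Galnt7 by 0.079 (SE 0.069) and Galnt9 by -0.026 (SE 0.068), with 95% intervals that reached 0.28, 0.23 and 0.13 at the upper end.

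The share of a member's variance over the 6 arrays that went with number 1 differed between genes. It was 97.8% for Galnt12, 96.7% for Galnt4, 95.2% for Galnt10 and 78.3% for Galntl5. It was 46.1% for Galnt7, 42.4% for Galnt18, 30.9% for Galntl6 and 2.86% for Galnt9. Galnt9 had the largest share with the treatment label, with 74.7% of its variance between PMA and control. The total variation of Galnt9 was small, from 5.36 to 5.57 over the 6 arrays, and its PMA difference was not called. The share between PMA and control was 39.8% for Galntl6 and 14.0% or less for the other 6.

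**Figure D3:**
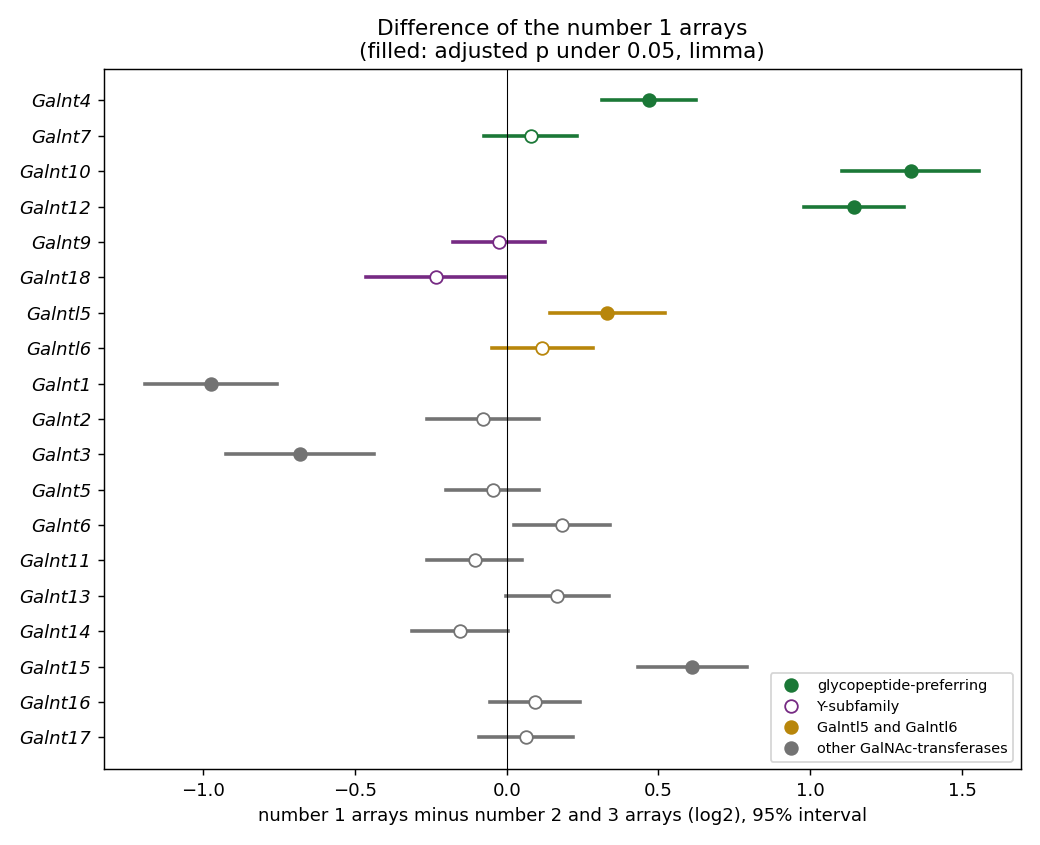
Difference of the number 1 arrays from the number 2 and 3 arrays (log2, with limma's 95% interval) for the 8 members, coloured by group, and for 11 other GalNAc-transferases in grey. Filled points passed an adjusted p of 0.05: Galnt10, Galnt12, Galnt4 and Galntl5 upward among the members, and Galnt15 upward and Galnt1 and Galnt3 downward among the others.

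All 11 other GalNAc-transferases listed, most of which act on bare peptide, were measured. In number 1, 1 was called higher, 2 lower and 8 were not called, with a median difference of -0.046. Galnt1, a broadly expressed initiating enzyme, fell from 10.40 in numbers 2 and 3 to 9.43 in number 1, a difference of -0.97 (SE 0.097). Galnt3, known for glycosylating FGF23, differed by -0.68 (SE 0.11), and Galnt15 by 0.61 (SE 0.081). So 3 of 4 glycopeptide-preferring members were called, all higher, beside 3 of 11 in the other list, in both directions. Over all probe sets 41.7% were called, 27.5% higher and 14.1% lower, so the share called in the other list lies below that of all probe sets. Whether the lists differ was not tested.

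Genome neighbours in the family did not share a call. Galntl5 lies next to Galnt11 in the RefSeq order of genes, and Galnt11 differed by -0.11 (SE 0.070) in number 1, not called, where Galntl5 was called higher. Galnt7 lies next to Galntl6, and neither was called.

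With PMA the means of the 11 other GalNAc-transferases were higher in 6 and lower in 5, with a median difference of 0.024 and 0 called by limma (0 at an unadjusted p under 0.05). Their largest differences were -0.089 for Galnt1 (SE 0.41) and -0.084 for Galnt11 (SE 0.075). Galnt10, Galnt12, Galnt9, Galntl6 and Galnt18 each had a larger difference in size than these, though none of them passed.

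Enzymes that extend the GalNAc that these transferases add were measured for 15 of 16 listed genes. In number 1, where 27.5% of all probe sets were called higher and 14.1% lower, 5 of these 15 were called higher and 5 lower. The largest were the O-glycan sialyltransferase St6galnac2 at 2.82 (SE 0.078), the sulfotransferase Chst2 at 1.47 (SE 0.072) and the core 1 extension enzyme B3gnt3 at -1.40 (SE 0.11). Between PMA and control, 13 means were above and 2 below, with a median of 0.052, and 0 were called by limma (0 at an unadjusted p under 0.05). St3gal1 at 0.21 (SE 0.50) and B3gnt3 at -0.17 (SE 0.58) led. Over all 1246 probe sets 651 means were above and 595 below. Genes read on the same arrays are not independent, and these counts were not tested as a trend.

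Mucins and sialomucins, the proteins on which these sugars are built, were measured for 14 of 24 listed genes. In number 1, where 27.5% of all probe sets were called higher and 14.1% lower, 2 of these 14 were called higher and 3 lower. The largest were Muc5ac at -2.59 (SE 0.17), Muc5b at -1.13 (SE 0.072) and Cd164 at -0.85. Between PMA and control, 11 means were above and 3 below, and 0 were called by limma (0 at an unadjusted p under 0.05). Muc5ac at 0.18 (SE 1.06) and Cd164 at 0.14 (SE 0.36) led. Over all 1246 probe sets 651 means were above and 595 below, and the mucin counts were not tested as a trend.

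The genes whose values ran most like each called member over the 6 arrays were taken by Pearson's r, as a description. The distance of number 1 dominates each r, and the arrays are shared. Galnt10 ran most like Ndst1 (r = 0.999), which starts heparan sulfate sulfation, and Pkd1 (r = 0.998). Galnt12 ran most like Igfbp6 (r = 0.997) and Il2ra (r = 0.996), and Galnt4 most like the sialic acid transporter Slc35a1 (r = 0.997) and Wnt7a (r = 0.995). Galntl5 ran most like the O-glycan sialyltransferase St3gal2 (r = 0.981) and Muc1 (r = 0.975). The number 1 differences of these genes were 0.98 for Ndst1, 0.46 for Pkd1, 2.69 for Igfbp6, 0.31 for Il2ra, 0.47 for Slc35a1, 0.50 for Wnt7a, 0.27 for St3gal2 and 0.33 for Muc1.

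**Figure D4:**
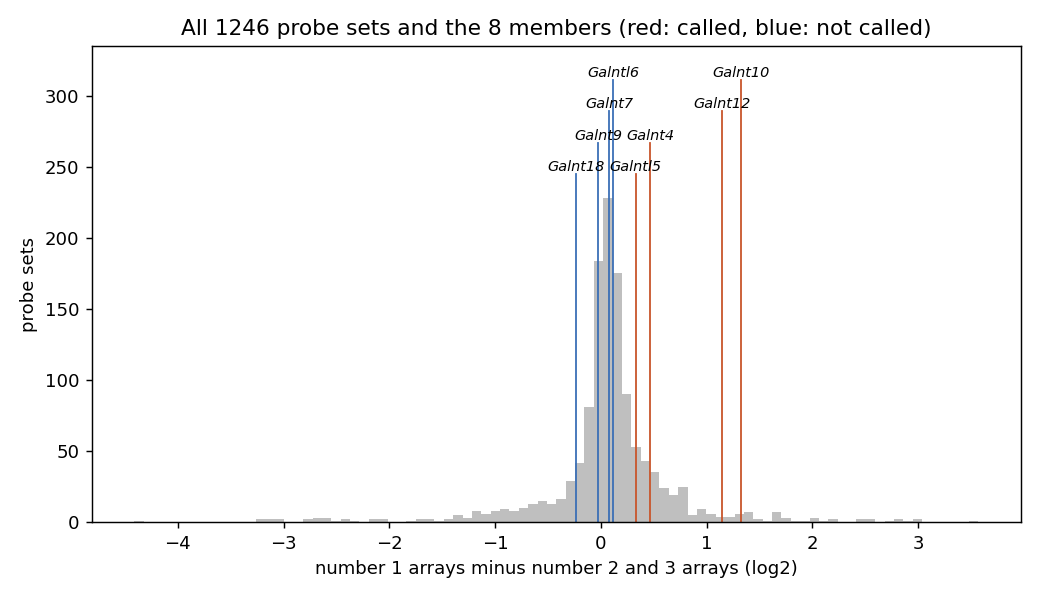
Number of probe sets (vertical axis) by difference of the number 1 arrays from numbers 2 and 3 (log2, horizontal axis) for all 1246 probe sets, with the 8 members marked, called ones in red. Galnt10 and Galnt12 lie at 1.33 and 1.14, among the 9.23% beyond 1 log2 unit in size, and Galnt9 and Galnt7 lie near 0.

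Some markers of other cells also differed in number 1, in a comparison that called 14.1% of all probe sets lower and 27.5% higher. Of 6 measured endothelial and fibroblast markers 4 were called lower in number 1, with a mean level of 5.51 to 5.58 in its arrays and 6.42 to 6.64 in the others. The other 2, Emcn at 0.13 and Lum at 0.074, were not called. Of 10 leukocyte markers 2 were called lower, Ccr7 at -3.22 and Mrc1 at -2.74. The other 8 lay between -0.090 and 0.080, and the median of the 10 was -0.011. The leukocyte mean levels, 4.87 to 5.04 in number 1 and 5.54 to 5.58 in the others, thus differ through these 2 genes. Of the 2 lung epithelial markers Sftpa1 was higher, and the mean levels of both were 4.65 to 4.70 and 4.29 to 4.44. No marker had a value of 0, which RMA does not give. Their part in the differences of Galnt10, Galnt12, Galnt4 and Galntl5 was not tested. All arrays are labelled as the same cell line, so these genes need not mark other cells here. In bulk RNA fewer cells of a type and less RNA per cell cannot be told apart. Between control and PMA the mean levels overlapped in all 3 lists.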

How the data were processed

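The deposited table holds log2 values made by the authors with RMA, per the submitters' processing notes. The sources used here give no version of RMA, array name, genome build, annotation or filter. Values were used as deposited. Of 1246 probe sets, 962 were named by RefSeq accession, without version, through the gene table of GRCm38.p6, and 284 stayed unnamed. Promoters came from the RefSeq table of that build. Matching by accession matters here, since older symbols of Galnt10 and Galntl5 were Galnt9 and Galnt15. Each gene was read through its probe set of highest mean.

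limma 3.58.1 in R 4.3.3 (lmFit, eBayes) was fitted to all probe sets, with Benjamini-Hochberg adjustment over all of them and a threshold of 0.05. The fits were PMA alone, number 1 with PMA as a term, and their interaction. SE is limma's moderated standard error. The procedure was tested on simulated data with independent noise of the same size for all probe sets. For PMA these data held no shift of the number 1 arrays. That test therefore does not show what the PMA fit could detect here. All 8 members were named, along with the 3 largest called number 1 differences and the 2 largest PMA differences of each list, and the 2 genes most like each called member. Neighbouring genes, markers called in number 1 and the TATAAA match before Galntl6 were added after their values were seen. Members and lists, and the number 1 comparison named with them, were chosen with earlier results of these data known.

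Arrays with the same number deviated from their group means together, at r = 0.956, 0.815 and 0.912 across probe sets, all over the 0.1 set for treating numbers as pairs. With number 1 set aside, the difference between numbers 2 and 3 in control and that in PMA arrays correlated at only 0.041. Both a blocked and an unblocked fit were therefore run. Alternatives were other normalizations, a filter on dim probe sets, averaging a gene's probe sets, an intensity trend and left-out arrays.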

Additional observations from a re-analysis of the deposited data

Results flagged for a closer look

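The unnamed probe set uc009kma.1_psr1_at was the only one called by limma with Benjamini-Hochberg adjustment for a PMA difference that depended on the number. Its PMA difference in number 1 exceeded that in numbers 2 and 3 by 1.21 log2 units (SE 0.13, adjusted p = 0.0360), with pairs of 1.24, 0.088 and -0.022. With a second quantile normalization or an intensity trend 0 probe sets were called, and 2 to 18 with 1 array left out. It is not a GalNAc-transferase named here.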

How the results depend on the processing

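For PMA, each alternative run gave 0 called members and 0 called probe sets by limma, the replicate block (0) included, and the block changed no call. Replacing the block by a single number 1 term, an alternative added after seeing the data, also gave 0 calls. The signs of small differences did change. Galnt4 turned to -0.0012 and Galntl5 to -0.0027 with each array's median subtracted. Galnt7 turned to 0.0035 without number 1 in both groups, Galnt4 to -0.035 and Galnt18 to -0.028 without number 2, and Galntl5 to -0.087 without number 3. Leaving out 1 array unbalances the numbers, and differences then ran from -0.14 to 0.17 for Galnt4, -0.075 to 0.0076 for Galnt7, -0.26 to 0.62 for Galnt10, -0.51 to 0.25 for Galnt12, -0.057 to 0.21 for Galnt18 and -0.11 to 0.17 for Galntl5. Galnt9 and Galntl6 kept their sign in each.

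For number 1, between 403 and 543 probe sets and 3 to 5 members were called over the alternatives, and Galnt10, Galnt12 and Galnt4 passed in each. The filter on dim probe sets removed Galnt7, Galntl5 and Galntl6. Galntl5 was not called in PMA arrays alone (0.19, adjusted p = 0.241 by limma), and Galnt18 was called lower in PMA arrays alone (-0.35) and without number 3 (-0.34). In PMA arrays alone number 1 is a single array, assumed to vary like numbers 2 and 3. Galnt9 turned to 0.010 in PMA arrays alone and to 0.0026 without number 2, and ran from -0.061 to 0.010 with 1 array left out.

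The PMA difference by number was called for 0 members in each alternative. Over all probe sets 0 were called after a second quantile normalization (80 at an unadjusted p under 0.05) or with an intensity trend (105), and 2 to 18 with 1 array left out. Galnt4 turned to 0.095 and Galnt10 to 0.016 after that normalization, and Galnt12 to -0.014 with medians subtracted. With 1 array left out they ran from -0.071 to 0.061, -0.31 to 0.055 and -0.051 to 0.11. The cause of these changes was not tested. Signal over background is unknown, so dim transcripts such as Galnt7, Galntl5 and Galntl6 are the least certain.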
